A study of Mus musculus with 6 samples.

Results

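The core circadian clock loop comprises 10 genes, and all 10 were represented by 1 probe set each among the 16492 gene probe sets of an Affymetrix expression array series of mouse quadriceps, a large thigh muscle. They were found by the Entrez identifier of each row and are the activators Arntl, Clock and Npas2, the period genes Per1, Per2 and Per3, the cryptochromes Cry1 and Cry2, and the nuclear receptors Nr1d1 and Nr1d2. RNA came from 3 heterozygous mice (nebulin +/-, a single nebulin allele) and 3 wild-type mice (nebulin +/+), each a separate animal on an array of its own. Nebulin is a giant protein of the muscle thin filament, and the comparison asks which transcripts differ when 1 copy of its gene is lost. The labels used here name no strain, age, sex, feeding state or hour of tissue collection, nor how the nebulin allele was inactivated.

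In the core loop, ARNTL (also called BMAL1) pairs with CLOCK or with its relative NPAS2 and switches on the Per, Cry and Nr1d genes through DNA elements called E-boxes. The PER and CRY proteins return to the nucleus and inhibit that pair, and the REV-ERB proteins encoded by Nr1d1 and Nr1d2 repress Arntl through a separate element, so that the loop completes a cycle in about a day. In mouse tissues Arntl transcript levels peak in antiphase to those of the period genes, with Nr1d1 rising ahead of Per2. Skeletal muscle has a clock of its own, which sets daily rhythms in many genes of fuel use.

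The start-site windows of these genes were searched for the letters of elements linked to the loop, and they are given to relate the members to each other. RefSeq windows (build GRCm38.p6), covering 250 bases before to 50 bases after each transcript start, were matched for 9 of the 10 members, all but Per2, and numbered 13 because some genes have several starts. Both strands were searched for the E-box CACGTG, the related element CACGTT (E'-box), the D-box TTATGTAA or TTACGTAA, the core AGGTCA of the REV-ERB and ROR element, and the cAMP response element TGACGTCA. The E-box was in 2 of the 13 windows, those of Per1 and Cry1, and in 7.15% of all 32851 windows. The E'-box was in 3, those of Cry1, Cry2 and Nr1d1 (4.68% of all windows), and the D-box in 1, that of Per3, which holds it at 205 and again at 158 bases before the start (1.06% of all windows). The AGGTCA core was in 4, of Arntl, Clock, Per1 and Nr1d2 (16.3% of all windows), and the cAMP response element in none (1.79% of all windows). None of these motifs overlaps another in the stretches printed, and a match of letters is not a measured binding site. Sites outside the windows or with other letters were not searched for, so an absent match does not show that a gene lacks the element. The 250 bases before the most upstream start follow for 4 genes, together with 30 bases around the Arntl match, which lies 32 bases into the transcript. Capitals mark the E-box and the reversed AGGTCA core in Per1, the D-boxes in Per3, the E'-box followed by the E-box in Cry1, the E'-box in Nr1d1 and the AGGTCA core in Arntl.
Per1 (chr11:69098699-69098948, plus strand): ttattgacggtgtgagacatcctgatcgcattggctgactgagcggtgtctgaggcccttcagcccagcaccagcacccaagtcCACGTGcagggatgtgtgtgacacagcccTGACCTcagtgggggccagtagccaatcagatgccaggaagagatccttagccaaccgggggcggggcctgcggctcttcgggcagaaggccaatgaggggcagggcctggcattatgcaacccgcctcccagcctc
Per3 (chr4:151044666-151044915, minus strand): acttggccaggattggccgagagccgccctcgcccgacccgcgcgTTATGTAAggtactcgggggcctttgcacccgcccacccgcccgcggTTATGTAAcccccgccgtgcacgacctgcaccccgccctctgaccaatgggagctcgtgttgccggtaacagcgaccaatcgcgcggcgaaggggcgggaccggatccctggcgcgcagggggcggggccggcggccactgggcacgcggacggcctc
Cry1 (chr10:85185055-85185304, minus strand): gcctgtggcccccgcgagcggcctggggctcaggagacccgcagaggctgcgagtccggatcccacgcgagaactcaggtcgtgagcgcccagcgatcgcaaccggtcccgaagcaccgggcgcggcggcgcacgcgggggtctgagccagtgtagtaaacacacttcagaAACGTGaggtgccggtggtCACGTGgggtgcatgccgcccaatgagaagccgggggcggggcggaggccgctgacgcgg
Nr1d1 (chr11:98775378-98775627, minus strand): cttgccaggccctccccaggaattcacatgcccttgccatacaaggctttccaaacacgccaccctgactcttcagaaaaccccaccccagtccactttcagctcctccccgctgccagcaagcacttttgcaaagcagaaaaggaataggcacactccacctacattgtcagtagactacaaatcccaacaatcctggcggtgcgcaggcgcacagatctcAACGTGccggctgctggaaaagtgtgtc
Arntl (chr7:113207530-113207559, plus strand): aaggcagaaagtAGGTCAgggacggaggtg

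The arrays share 1 distribution of log2 values, with a median of 7.227, and correlated at r = 0.9965 to 0.9977 within a genotype and at 0.9932 to 0.9953 between genotypes. Neb itself measured 12.08, 11.73 and 11.94 in heterozygous mice 1, 2 and 3 and 12.17, 12.09 and 12.16 in wild-type mice 1, 2 and 3, a log2 difference of -0.22 ± 0.08 (SE) that did not pass (limma, adjusted p = 0.161). The position of its probes relative to the inactivated part is unknown here, and Neb therefore does not check the labels. All 8 skeletal muscle markers were measured and none was called, with summed signals of 16.86 to 16.96 in heterozygous and 16.93 to 16.99 in wild-type mice (log2 of the sum). The slow fibre markers moved with genotype: 6 of 7 were called higher, and their summed signal was 14.47 to 14.78 against 13.06 to 13.58. In a whole-muscle extract a change in the number of cells of a type and a change in RNA per cell cannot be told apart, and the part of fibre type in the clock differences below was not tested.

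Transcripts of the loop differed between the genotypes in both directions. Per1 and Per2 rose in heterozygous muscle, by 1.76-fold and 1.38-fold, and Arntl and Nr1d1 fell, by 1.42-fold and 1.33-fold. The labels name no hour of tissue collection, and a difference in that hour between the groups cannot be told apart here from one of genotype. Its part in these values, and that of clock phase, was not tested. Of the 9 members that passed the filter on dim probe sets, 4 passed an adjusted p of 0.05 (limma, adjusted over all 11544 tested probe sets), 2 in each direction, and 5 did not. The number called was 2 without heterozygous mouse 2 and 1 without heterozygous mouse 3 or without wild-type mouse 2. Over all tested probe sets 3.11% were called, 1.53% higher and 1.58% lower. The members were chosen with earlier results of these data known, so shares set side by side here are description. The heterozygous and wild-type values did not overlap at any of the 9, with 6 higher and 3 lower, where 26.3% of all tested probe sets were without overlap, 13.1% higher and 13.2% lower. Npas2, which did not pass the filter, overlapped between the genotypes. The median size of the 9 log2 differences was 0.19, against 0.05 over all tested probe sets. The median SD within a genotype, pooled over both genotypes, was 0.07 on the log2 scale, against 0.05 over all tested probe sets.

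**Figure D1:**
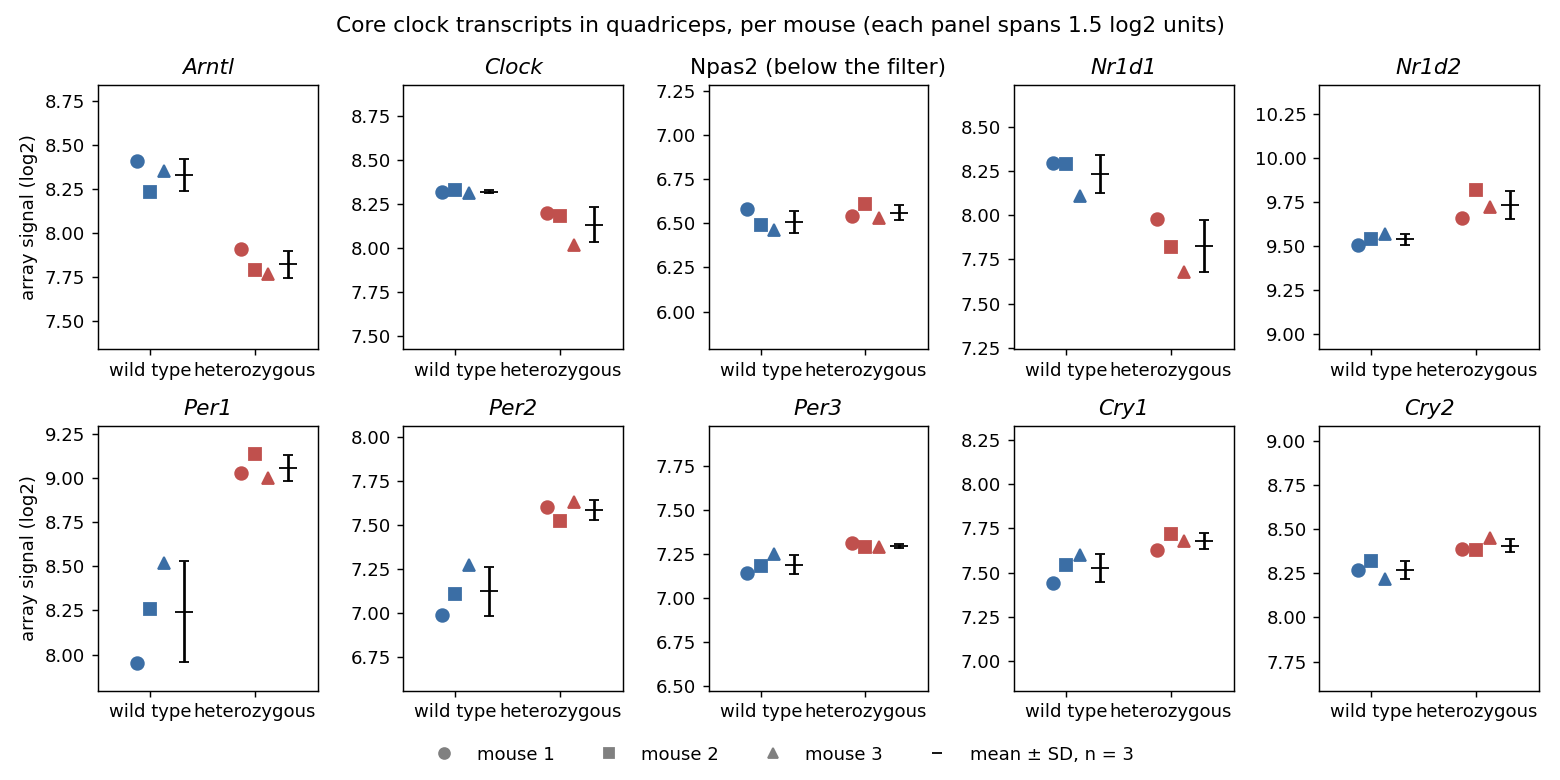
Array signal (log2, vertical axes of equal span) of the 10 core clock transcripts in each wild-type mouse (blue) and heterozygous mouse (red); marker shapes give the mouse number, and bars are the mean ± SD of 3 mice. The 2 genotypes do not overlap in any panel except that of Npas2.

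Arntl, the activator without which the loop does not run, had log2 signals of 7.91, 7.79 and 7.77 in heterozygous mice 1, 2 and 3 and of 8.41, 8.23 and 8.35 in the wild-type mice. Every heterozygous mouse was below every wild-type mouse, with 0.32 between the nearest values. The log2 difference was -0.51 ± 0.06 (SE; limma, adjusted p = 0.00807), so that Arntl fell by 29.7% (95% CI -35.9% to -22.9%), and it ranked 23 of 11544 by p. It remained past the threshold in each of the 6 fits that left out a mouse, with adjusted p from 0.00369 to 0.04, and it was the sole member of the loop to do so.

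Clock, the usual partner of Arntl, measured 8.20, 8.18 and 8.02 in heterozygous mice and 8.32, 8.33 and 8.31 in wild-type mice. The wild-type values lay within 0.02 of each other and above all 3 heterozygous values, of which mouse 3 was the lowest. The log2 difference of -0.19 ± 0.05 (SE) did not pass (limma, adjusted p = 0.093). Npas2, which can stand in for Clock, was below the filter at 6.53 to 6.61 in heterozygous and 6.46 to 6.58 in wild-type mice. Its groups overlapped, with a log2 difference of 0.05 ± 0.04 (SE) and an adjusted p of 0.594 in the limma fit without the filter, and a dim probe set bounds what could be seen.

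The period genes encode inhibitors of the ARNTL and CLOCK pair, and Per1 and Per2 also respond quickly to signals from outside the loop. Per1 had log2 signals of 9.03, 9.14 and 9.00 in heterozygous mice and of 7.95, 8.26 and 8.52 in wild-type mice. The heterozygous values were close together, whereas the wild-type values spread over 0.56, with mouse 1 lowest and mouse 3 highest. Per1 had the largest difference of the members, 0.81 ± 0.12 (SE; limma, adjusted p = 0.0147), or 75.6% higher with a 95% CI of 45.1% to 113%. Its SD pooled over the genotypes exceeded that of 98.7% of tested probe sets. By genotype the SD was 0.07 in heterozygous and 0.28 in wild-type mice.

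Per2 had log2 signals of 7.60, 7.52 and 7.63 in heterozygous mice and of 6.99, 7.11 and 7.27 in wild-type mice. Wild-type mouse 3 was again the closest to the heterozygous mice, with 0.26 between them. The log2 difference was 0.46 ± 0.07 (SE; limma, adjusted p = 0.0141), or 37.8% higher (95% CI 23.7% to 53.5%). Per3, whose window holds the pair of D-boxes, measured 7.29 to 7.31 in heterozygous and 7.14 to 7.25 in wild-type mice. The nearest values were 0.04 apart, and the log2 difference of 0.11 ± 0.04 (SE) did not pass (limma, adjusted p = 0.182). Leaving out single mice ended some of these calls: the adjusted p of Per1 was 0.0628, 0.0583 and 0.0569 without heterozygous mouse 2, heterozygous mouse 3 and wild-type mouse 2, and that of Per2 was 0.0682 and 0.0592 without heterozygous mouse 3 and wild-type mouse 2 (limma).

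The cryptochromes join the period proteins in inhibiting ARNTL and CLOCK. Cry1 measured 7.63, 7.72 and 7.68 in heterozygous mice and 7.44, 7.54 and 7.60 in wild-type mice. Cry2 measured 8.39, 8.38 and 8.45 against 8.27, 8.32 and 8.22. Both were higher in every heterozygous mouse, by small margins of 0.03 and 0.06 between the nearest values. Their log2 differences, 0.15 ± 0.05 and 0.14 ± 0.04 (SE), were alike in size and did not pass (limma, adjusted p = 0.137 and 0.106). The Cry2 probe set has no entry in the platform annotation and was named through its Entrez identifier in RefSeq.

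The REV-ERB genes, which encode related repressors of Arntl, had differences of opposite sign. Nr1d1 measured 7.98, 7.82 and 7.68 in heterozygous mice and 8.30, 8.29 and 8.11 in wild-type mice. In each genotype mouse 3 was the lowest, and the nearest values of the genotypes were 0.14 apart. Nr1d1 fell by 24.7% (95% CI -33.6% to -14.6%), a log2 difference of -0.41 ± 0.08 (SE; limma, adjusted p = 0.0352). This call is the least stable of the 4, being lost without heterozygous mouse 2, heterozygous mouse 3, wild-type mouse 1 or wild-type mouse 2 (limma, adjusted p = 0.106, 0.101, 0.114 and 0.106). Nr1d2 measured 9.66, 9.82 and 9.72 in heterozygous mice and 9.51, 9.54 and 9.57 in wild-type mice, higher in every heterozygous mouse. Its log2 difference of 0.19 ± 0.05 (SE) did not pass (limma, adjusted p = 0.0678), but it passed with cyclic loess (0.0495), with array weights (0.046) and when heterozygous mouse 1 was left out (0.0374).

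**Figure D2:**
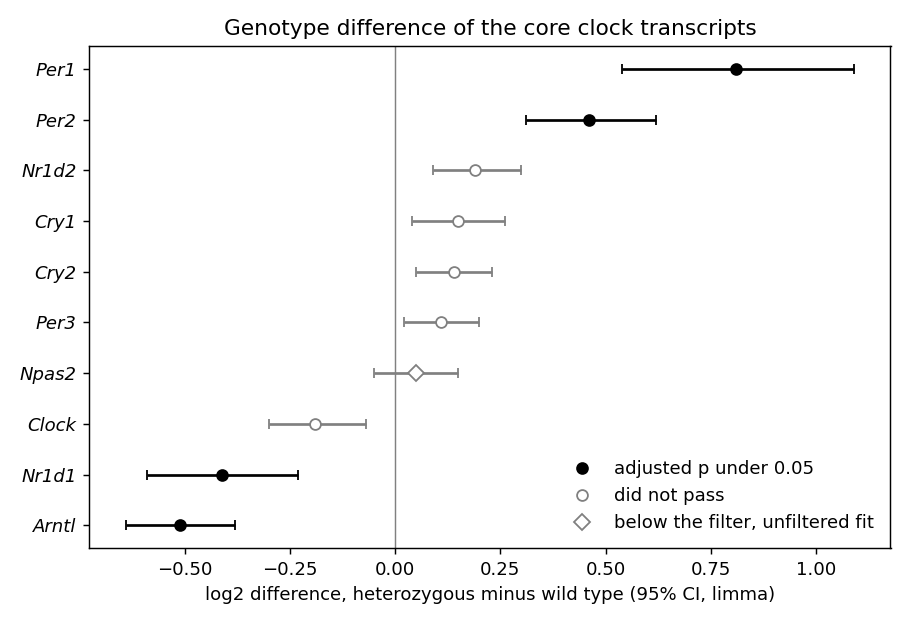
Log2 difference (heterozygous minus wild type, horizontal axis) of each core clock transcript with its 95% confidence interval from limma; filled points passed an adjusted p of 0.05, and the diamond is Npas2 from the fit without a filter. Per1 and Per2 lie on the higher side and Arntl and Nr1d1 on the lower side.

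Ratios within each array were compared for 6 pairs of members, chosen after the values above were seen, as deviations from the mean over all 6 mice. The log2 ratio of Nr1d2 to Nr1d1 was 0.08, 0.39 and 0.44 in heterozygous mice 1, 2 and 3 and -0.40, -0.36 and -0.15 in the wild-type mice, a difference of 0.60. The ratio of Per1 to Arntl differed by 1.32, from 0.66 ± 0.11 in heterozygous to -0.66 ± 0.33 in wild-type mice (SD over 3 mice; exact two-sided permutation p = 0.1). Per1 against Per2, Per2 against Per3 and Arntl against Clock differed by 0.35, 0.36 and -0.32. These 5 pairs each had an exact two-sided permutation p of 0.1, the smallest that 3 mice against 3 can give, and 0.12 after Benjamini-Hochberg adjustment over the 6. For Per1 to Arntl and Nr1d2 to Nr1d1 this outcome was fixed beforehand, since their members were already without overlap in opposite directions. Because the pairs were also picked from the values, these p-values are description and add no evidence to the single-gene results. The ratio of Cry1 to Cry2 differed by 0.01 (exact two-sided permutation p = 0.8).

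Arranged by mouse, Arntl, Clock and Nr1d1 were higher in every wild-type mouse and the other 6 tested members in every heterozygous mouse, and Npas2 showed neither arrangement. The mean deviation of Arntl and Clock from their levels over all mice was -0.10, -0.17 and -0.26 in heterozygous mice 1, 2 and 3 and 0.22, 0.13 and 0.18 in the wild-type mice. That of Per1, Per2 and Per3 was 0.23, 0.23 and 0.22 against -0.39, -0.23 and -0.07, and that of Cry1 and Cry2 was 0.04, 0.08 and 0.10 against -0.12, -0.04 and -0.06. In these means the heterozygous mice were nearly alike in the period genes, and the wild-type mice were not. As single genes, Per1 and Per2 spanned 0.14 and 0.10 in heterozygous mice, against 0.56 and 0.28 in wild-type mice. Clock, Nr1d1 and Nr1d2 had the wider span in heterozygous mice, 0.18, 0.30 and 0.16 against 0.02, 0.19 and 0.07. In 5 members (Nr1d2, Per1, Per2, Per3 and Cry1) mouse 1 was the lowest and mouse 3 the highest of the wild-type animals, while Nr1d1 was lowest in wild-type mouse 3. Among the heterozygous mice, mouse 3 was the lowest in each of the 3 members with negative differences, Arntl, Clock and Nr1d1. These means describe the mice and were not tested, since the members share the same arrays.

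**Figure D3:**
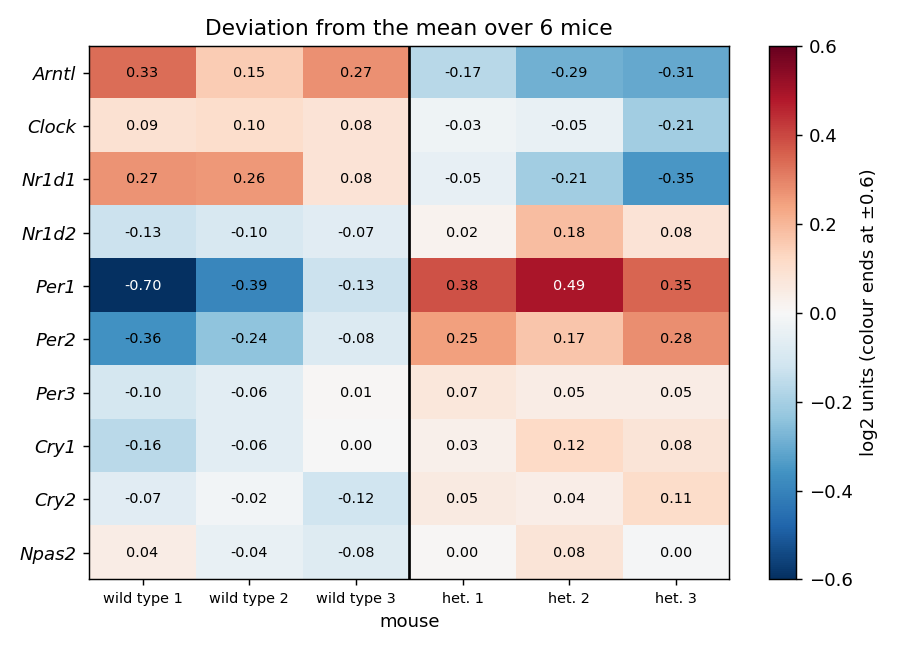
Deviation of each core clock transcript (rows) from its mean over the 6 mice (columns), in log2 units, with blue below and red above the mean; the vertical line separates the genotypes. Arntl, Clock and Nr1d1 are red in wild-type and blue in heterozygous mice, the period genes, cryptochromes and Nr1d2 are higher in heterozygous mice, and Npas2 overlaps.

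Beyond the loop, 27 genes of clock output, protein turnover and metabolic coupling were examined, of which 25 were tested and 2 (Rorb and Fbxl21) were below the filter. In heterozygous muscle 3 rose, 2 fell and 20 did not pass, or 20.0% called beside the 3.11% of all tested probe sets, with a median difference of 0.01. The genotypes did not overlap in 36.0% of the 25, beside 26.3% of all tested probe sets. The list was chosen with earlier results of these data known, so these shares are description and not a test of the pathway. The log2 signal of Nfil3, a repressor that acts on D-boxes, was 8.06, 8.41 and 8.42 in heterozygous and 7.77, 7.57 and 7.75 in wild-type mice, a rise of 0.60 ± 0.10 (SE; limma, adjusted p = 0.0224). Tef, an activator at the same element, rose by 0.17 ± 0.04 (SE; limma, adjusted p = 0.0449, and 0.0551 with the replicate number as a block). With any 1 mouse left out, Tef did not pass (limma, adjusted p = 0.0741 to 0.135). Its relatives Hlf and Dbp had differences of 0.20 and 0.03 (limma, adjusted p = 0.181 and 0.869), and Dbp overlapped between the genotypes.

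Wee1, a kinase that delays mitosis and is a known clock target in mouse liver, measured 7.72, 7.81 and 7.93 against 7.40, 7.44 and 7.47 and rose by 0.38 ± 0.06 (SE; limma, adjusted p = 0.0141). Skp1, a subunit shared by many ubiquitin ligases, and Ppargc1a, a coactivator of mitochondrial genes, had differences of -0.23 ± 0.04 and -0.30 ± 0.06 (SE; limma, adjusted p = 0.0236 and 0.0399), and both fell. Among those that did not pass, Rora, an activator of Arntl that competes with the REV-ERB proteins, had a difference of -0.17, and Nampt, an enzyme of NAD synthesis, of -0.20 (limma, adjusted p = 0.112 and 0.111). Nampt passed with the replicate number as a block (limma, adjusted p = 0.0423). The deubiquitinase gene Usp2 and the PER kinase gene Csnk1e had differences of 0.23 and 0.19 (limma, adjusted p = 0.112 and 0.178). Without single mice, 0 to 3 of the 25 passed. The number was 0 without heterozygous mouse 2 and without wild-type mouse 1, 3 without heterozygous mouse 1, and 1 in each of the other fits. Of these 6 fits, Wee1 passed in 3, Nfil3, Skp1 and Ppargc1a in 1 each, and Tef in 0.

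**Figure D4:**
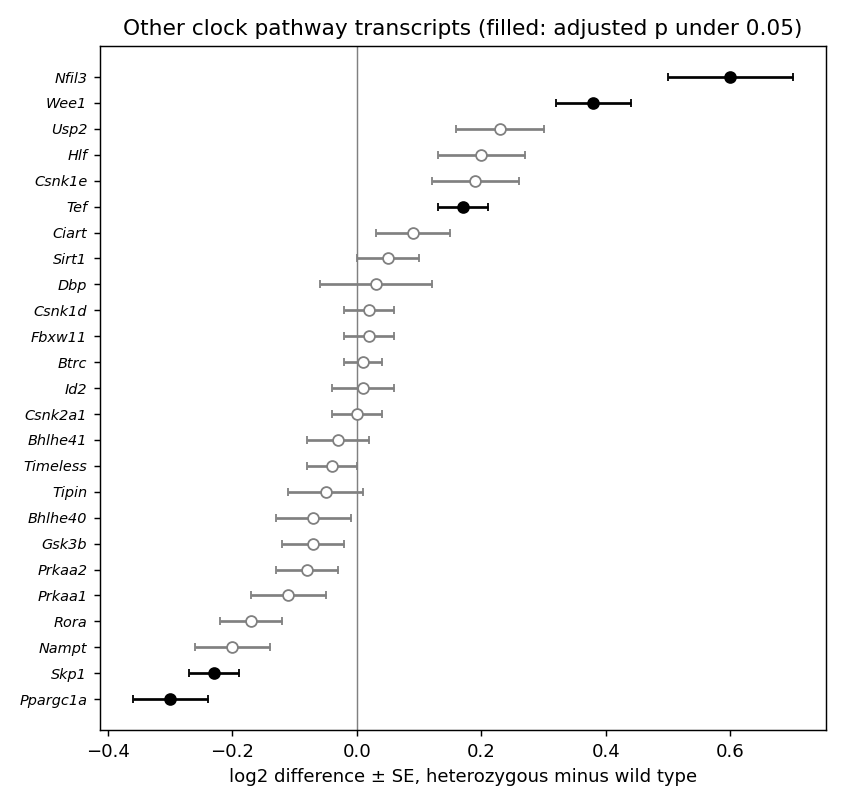
Log2 difference ± SE (heterozygous minus wild type) of 25 other clock pathway transcripts from limma, ordered by size; filled points passed an adjusted p of 0.05. Nfil3, Wee1 and Tef are the filled points above 0, and Skp1 and Ppargc1a those below.

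For each called member, the 3 named transcripts with the most similar profile over the 6 mice were found among 10842 tested, by the root mean square difference of centred log2 values, as a description. Closest to Arntl were Bdh1, Plbd1 and Fgl2, at 0.047, 0.052 and 0.053. Closest to Nr1d1 were Gdap1, Col4a2 and Stbd1, at 0.055, 0.064 and 0.066. Closest to Per1 were Errfi1, Klf2 and Tcim, at 0.103, 0.116 and 0.126, and closest to Per2 were Ip6k3, Myod1 and Mid1ip1, at 0.060, 0.062 and 0.062. Per1 had no neighbour as near as those of the other called members. These distances are in log2 units and were not scaled to the size of a difference, which was largest in Per1.

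Markers of other cell types were compared beside these values. No marker of tendon (5 of 6 tested, Mkx below the filter), nerve (4 of 6 tested), adipocytes (4 of 6), leukocytes (4 of 6, Itgam below the filter), red cells (1 of 3) or fibroblasts (4 of 4) was called. Of 5 endothelial markers 1 was called lower. Summed signals did not overlap for endothelium, 10.50 to 10.61 in heterozygous against 10.68 to 10.75 in wild-type mice, nor for tendon, 12.67 to 12.72 against 12.34 to 12.66. They overlapped for nerve (10.78 to 11.36 against 10.36 to 10.81), adipocytes (11.69 to 12.07 against 11.73 to 11.99), leukocytes (9.72 to 9.78 against 9.73 to 9.91), red cells (7.63 to 8.53 against 7.75 to 7.96) and fibroblasts (13.74 to 13.88 against 13.57 to 13.90). The part of endothelium or tendon in the clock differences was not tested.

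**Figure D5:**
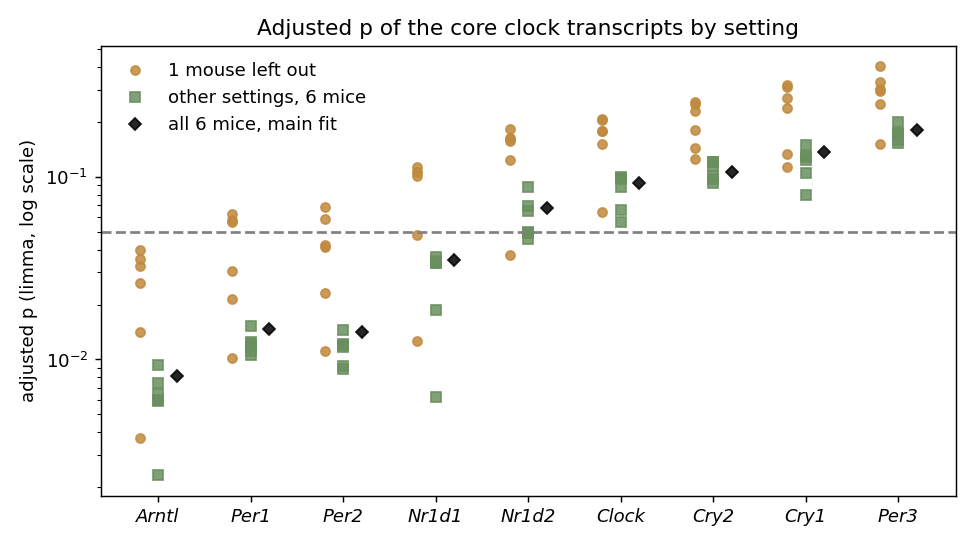
Adjusted p (limma, log axis) of the 9 tested core clock transcripts with all 6 mice (black), under 6 other settings (green) and with 1 mouse left out (orange); the dashed line is 0.05. All points of Arntl lie below the line, and those of Per1, Per2, Nr1d1 and Nr1d2 lie on both sides of it.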

How the data were processed

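Quadriceps RNA of 6 mice was measured on 1 Affymetrix array each; per the labels' protocols the extraction used Trizol followed by a Qiagen kit, and the cRNA carried biotin. The values deposited by the authors are log2 signals per probe set, and once sorted the 6 columns hold the same values, the result of quantile normalization, which hides any shift common to all transcripts. The method of probe summarisation is unknown here. With 6 arrays, precision is limited throughout.

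Row names were matched as Entrez identifiers to the platform annotation and to RefSeq (GRCm38.p6). Of 16556 rows, 64 were controls, and 11544 of the 16492 gene probe sets had a mean above the 30th percentile (6.736) and were tested. Genotypes were compared as heterozygous minus wild type with limma 3.58.1 in R 4.3.3 (lmFit, eBayes, no trend or weights), with Benjamini-Hochberg adjustment over all tested probe sets and a threshold of 0.05. The fit was also run on simulated arrays with independent normal values, a simpler case than these data, and no result here rests on that run. Errors are limma's SE for differences and SD for group means. The log2 signals of different probe sets were not compared with each other.

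Same-numbered mice deviated together from their group means (r = 0.187, 0.234 and 0.129, all over 0.1), and the labels do not say what a number stands for; a fit with the number as a block is an alternative. The others are no filter, a 50th percentile filter, an eBayes trend, array weights, cyclic loess and leaving out each mouse. All members, the other clock pathway genes that passed and the 4 next by p were named; Hlf and Dbp were named after their values were seen. The members and lists were chosen with earlier results of these data known, and 2 listed genes are not reported here.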

Additional observations from a re-analysis of the deposited data

How the results depend on the processing

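Every tested core clock member kept the direction of its difference in all 12 alternative fits. In the 6 alternatives that kept all mice, Arntl, Per1, Per2 and Nr1d1 remained past the threshold, with adjusted p up to 0.0093, 0.0152, 0.0145 and 0.0364, and Clock, Per3, Cry1 and Cry2 remained short of it. Nr1d2 passed with array weights (log2 difference 0.20) and with cyclic loess (0.21). The replicate block raised the number of called probe sets from 359 to 572 and changed no call of a member; among the other clock pathway genes it ended the call of Tef and gained that of Nampt (-0.20, adjusted p = 0.0423). Array weights left 1 fall instead of 2 among those genes, losing Ppargc1a (adjusted p = 0.0574), and the eBayes trend lost Tef (0.0651). Dbp, which did not pass, changed sign with array weights (-0.02).

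With a mouse left out, which leaves fewer samples, the called probe sets numbered 84 to 503 and the called members 1 to 5, with 0 to 3 higher and 1 to 2 lower. Of the other clock pathway genes 0 to 3 passed, 0 to 2 higher and 0 to 1 lower, and the difference of Dbp ran from -0.06 to 0.13. Over these 6 fits the log2 differences were -0.56 to -0.47 for Arntl, 0.67 to 0.95 for Per1, 0.40 to 0.54 for Per2, -0.49 to -0.34 for Nr1d1 and 0.15 to 0.23 for Nr1d2. Those of Clock, Per3, Cry1 and Cry2 were -0.22 to -0.13, 0.08 to 0.14, 0.11 to 0.18 and 0.12 to 0.16, and none of these 4 passed in any fit. The ratios between members, added after seeing the data, differed between the genotypes by 1.13 to 1.45 for Per1 to Arntl and by 0.54 to 0.72 for Nr1d2 to Nr1d1, and that of Cry1 to Cry2 by -0.03 to 0.07.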
